A study of Mus musculus with 12 samples.

Results

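The genes described here encode 10 subunits of the BAF (SWI/SNF) chromatin remodelling complexes of the mouse: Smarca4, Smarcb1, Smarcc1, Smarcc2, Smarcd1, Arid1a, Arid1b, Dpf2, Brd9 and Bicral. They were taken by name from the 22462 genes of the deposited count table, each matched to a single row through its gene identifier by a rule that uses no measured value, although the list was drawn up with earlier results of these data known. All 10 passed the filter on low counts, which left 11750 genes for testing. Ribosome profiling, which sequences the RNA stretches shielded by ribosomes, and sequencing of matched total RNA were carried out on mouse embryonic stem cells (ESCs) and on epiblast-like cells (EpiLCs), the formative cells they give rise to. The comparison asks how mRNA level and translation of each gene differ between these cell states.

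There were 4 groups of 3 libraries each: ribosome protected footprints (RPFs) from ESCs, total RNA from ESCs, RPFs from EpiLCs and total RNA from EpiLCs. The ESCs were held in Knockout DMEM with serum, LIF and the inhibitor pair known as 2i (PD0325901 and CHIR99021). The EpiLCs came from the same cells about 56 hours after LIF and 2i were taken away. No genotype, mutation or further treatment is given by the labels, so the cell states differ by the withdrawal and the time in culture only as far as the labels tell. For differentiation the study's methods list a V6.5 ESC line carrying miR-290 mCherry and miR-302 GFP reporters, and the study calls its profiling replicates biological. The labels give neither the line nor separate cultures, and the p-values measure the spread between these libraries, whatever its source.

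BAF complexes use the energy of ATP to slide or evict nucleosomes and so open DNA to transcription factors. A single ATPase, Smarca4 (also called BRG1) or its paralogue Smarca2 (BRM), sits with shared core subunits, and the remaining subunits sort the complexes into canonical BAF, which holds Arid1a or Arid1b with Dpf2, PBAF, which holds Arid2 and Pbrm1, and non-canonical BAF (ncBAF), which holds Brd9 with Bicra or Bicral. ESCs are known for a version built on Smarca4 and rich in Smarcc1, and the complexes are known to be needed for self-renewal and for exit from the naive state.

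Total counts lay between 11491044 and 13477432 in the ESC total RNA libraries, between 6188838 and 14655015 in EpiLC total RNA, between 4777262 and 11359352 in ESC RPF and between 2681439 and 5413144 in EpiLC RPF, so that EpiLC footprints were the shallowest measurement. Naive markers passed the test as lower in EpiLCs for 8 of 8 genes at both mRNA and RPF level, and formative or primed markers as higher for 7 of 7, which matched the labels. Of the 3 pluripotency genes common to both states, Lin28a was higher in EpiLCs and Pou5f1 and Sox2 were lower, in both assays. Summed fibroblast feeder markers lay between 1.97 and 2.31 CPM (counts scaled to a common library size) in ESC total RNA and between 12.8 and 14.9 CPM in EpiLC total RNA, with Postn and Lum at 0 in all total RNA libraries, and the 3 of 7 that could be tested were higher in EpiLCs. The filter asked for 3 CPM in at least 3 libraries, so a marker low in one cell type could be tested only through the other. This held for most feeder markers, for Fgf5, Fgf15 and Lef1, and in reverse for Nr5a2 and Prdm14. The direction of these calls was therefore largely set by the filter. Summed neural markers lay between 56.6 and 71.5 CPM in ESC total RNA and between 251 and 331 CPM in EpiLC total RNA, most of it from Nes. Summed primitive endoderm and mesendoderm markers stayed under 12 CPM in total RNA, and of the trophoblast markers Tfap2c alone was above 1 CPM. Summed primitive endoderm markers overlapped between cell types in total RNA. The summed fibroblast and neural marker levels were higher and the summed mesendoderm levels lower in EpiLCs without overlap. The mesendoderm genes were split: mean total RNA CPM fell from 5.92 to 2.68 for Eomes and from 4.22 to 0.729 for Gsc. It rose from 0.322 to 1.78 for T and from 0.211 to 0.962 for Mixl1. The part of these markers in the changes described below was not tested. In bulk libraries, fewer cells of a type and less RNA per cell cannot be told apart.

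The counted region of every gene was its coding sequence less its first 45 bases, so the start of the Bicral reading frame is shown with the bases left out of the count in lower case and the first counted bases in capitals. The run is spliced from chr17:46830095-46830991 (GRCm38, minus strand), read 5′ to 3′ from the GENCODE M21 transcript with the longest coding sequence.

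Bicral: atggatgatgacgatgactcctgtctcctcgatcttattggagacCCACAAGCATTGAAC

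The counted Bicral region ran from 46801048 to 46830109 on chromosome 17, the same ends as the coding sequence of that transcript without 45 bases. None of the 10 genes shared counted bases with another gene on the same strand.

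The study as a whole concerns microRNAs, and the microRNA families most associated with these cells, miR-290 in ESCs and miR-302 in the formative state, share a seed. Mature sequences from RefSeq (GRCm38.p6) are shown because a seed match in a 3′ UTR is the feature by which such targets are usually listed, with seed bases 2 to 8 in capitals.

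mmu-miR-294-3p: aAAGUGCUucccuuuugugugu

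mmu-miR-302b-3p: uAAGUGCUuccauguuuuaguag

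The complement of seed bases 2 to 7, GCACTT, was searched on the transcribed strand of the M21 3′ UTRs of the 10 genes, together with AGCACTT, which holds the same letters plus the match to base 8. Both stretches below are given on GRCm38 with the matching bases in capitals, from chr9:110239708-110239737 (plus strand) for Smarcc1 and chr19:5898100-5898129 (minus strand) for Dpf2.

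Smarcc1: aaattgactccAGCACTTgccttctccccg

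Dpf2: ctggctgagtgGCACTTgccaggacctttt

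GCACTT was present in 2 of 10 members, against 30.6% of the 11477 tested genes with an annotated 3′ UTR, and AGCACTT in 1 of 10, against 15.6%. Neither set of letters was in the 2928 bases of the Bicral 3′ UTR. A match is a description of the letters and not a measured site, and microRNAs were not measured in these libraries.

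Taken over the 10 genes, the difference between ESCs and EpiLCs was small for most subunits and large for Bicral. At mRNA level 3 members were higher in EpiLCs (Arid1a, Smarcd1 and Smarcc1), against 34.6% of all tested genes, and 1 was lower (Bicral), against 30.7%. At RPF level 5 were higher (Smarcc2, Arid1a, Dpf2, Smarcc1 and Smarcd1), against 31.1%, and 1 was lower (Bicral), against 28.7%. For translational efficiency (TE), the RPF change less the mRNA change, 0 members were higher, against 0.570%, and 1 (Bicral) was lower, against 0.630%. The member higher for TE at an unadjusted limma p below 0.05 was Dpf2, and edgeR and DESeq2 also called 0 higher. These calls are limma adjusted p-values below 0.05. Genes that also changed by more than 1 on the log2 scale made up 24.3% of all tested genes for mRNA, 26.0% for RPF and 0.255% for TE. Past that limit stood no member for mRNA and Bicral alone for RPF and for TE. The median log2 change of the members was 0.09 for mRNA, 0.12 for RPF and 0.02 for TE, beside 0.03, 0.01 and 0.01 over all tested genes.

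**Figure D1:**
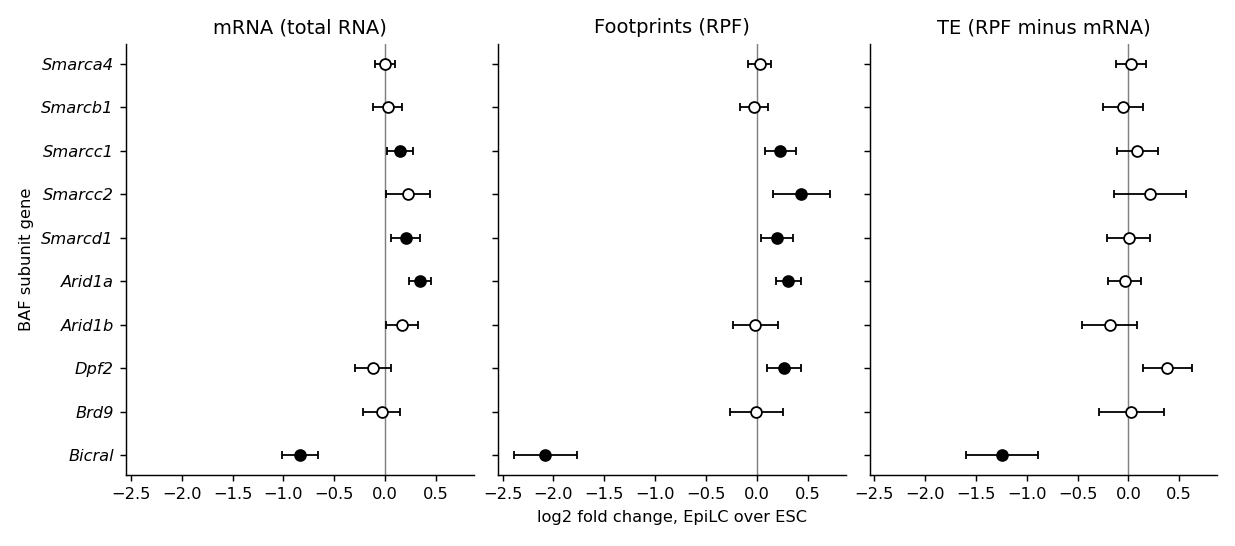
Log2 fold changes of EpiLC over ESC for the 10 subunit genes, for mRNA, RPF and TE. Points are limma estimates, bars are 95% confidence intervals, and filled points have an adjusted p below 0.05. Bicral lies at -0.84, -2.08 and -1.24, and the other 9 genes lie between -0.18 and 0.44.

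Levels of different genes were compared as CPM per kilobase of counted sequence. In ESC total RNA the core subunits other than Smarcc2 led: Smarca4, the ATPase, stood at 137 ± 3.92 (SD, n = 3), Smarcb1 at 136 ± 1.87 and Smarcc1 at 134 ± 2.98 CPM per kb, and the libraries of these neighbours overlapped. Smarcd1 followed at 121 ± 6.34 and did not overlap Smarcc1. The subunits that define one kind of complex came lower, with Dpf2 at 66.7 ± 1.34, Arid1a at 45.2 ± 0.930, Brd9 at 27.1 ± 2.18 and Bicral at 25.1 ± 1.02, the last pair overlapping. Arid1b, at 14.8 ± 0.286, and the core subunit Smarcc2, at 14.4 ± 1.66, were the lowest and overlapped each other. The order differed in RPF, where Smarcb1 led with no overlap, at 317 ± 13.7 CPM per kb in ESCs and 310 ± 3.03 in EpiLCs. Dpf2 stood above Smarca4 in RPF, at 128 against 120 CPM per kb in ESCs and 153 against 122 in EpiLCs. In ESCs the nearest libraries of that pair were close, at 127 and 125 CPM per kb.

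In EpiLC total RNA the same 4 core genes were at the top, between 137 and 149 CPM per kb, each overlapping its neighbour. Dpf2, at 60.6 ± 7.94, overlapped Arid1a, at 57.2 ± 1.58 CPM per kb. Bicral took the lowest place in EpiLCs, at 14.03 ± 0.491 in total RNA and 5.77 ± 1.15 CPM per kb in RPF, whereas in ESC RPF it stood at 23.8 ± 0.932, above Brd9 with no overlap. Bicral did not overlap the next gene, Arid1b, in either EpiLC assay.

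**Figure D2:**
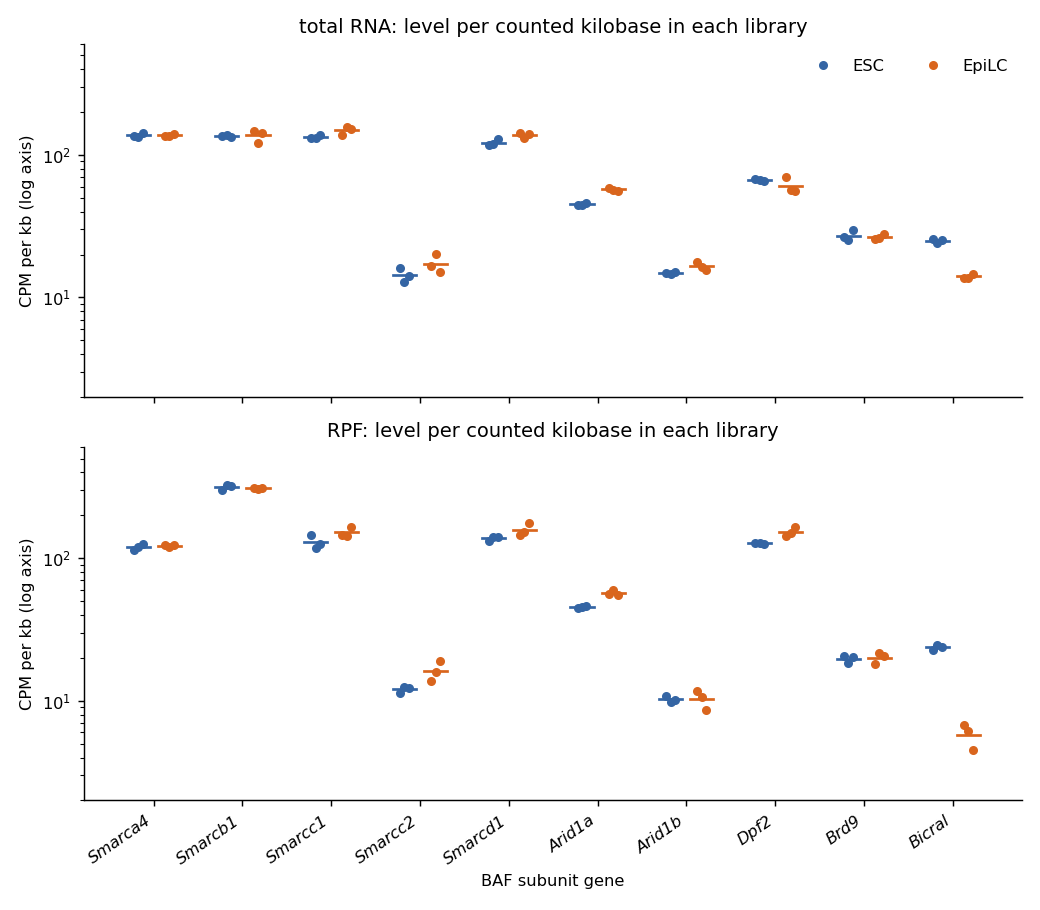
Level of each subunit gene in every library, in CPM per kilobase of counted sequence on a log axis, with total RNA above and RPF below. Points are the 3 libraries of a cell type and short lines their means. ESC and EpiLC points lie close together for most genes, and Bicral in EpiLC RPF, with a mean of 5.77 CPM per kb, is the lowest value drawn.

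Set against Smarca4 in the same library, Bicral mRNA per kilobase was 0.183 ± 0.00648 of Smarca4 in ESCs and 0.102 ± 0.00148 in EpiLCs (SD, n = 3). The footprint ratio went from 0.198 ± 0.00680 to 0.0471 ± 0.00948. Brd9, its partner in ncBAF, stood at 0.198 ± 0.0103 and 0.193 ± 0.00474 of Smarca4 mRNA and at 0.165 ± 0.0130 and 0.165 ± 0.0176 of Smarca4 footprints in ESCs and EpiLCs. Bicral ratios did not overlap between cell types in either assay, and Brd9 ratios did.

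Smarca4 showed no change past the threshold in either assay. Its total RNA level was 654, 646 and 682 CPM in the ESC libraries and 654, 653 and 677 CPM in the EpiLC libraries. Its RPF level was 552, 578 and 602 CPM in ESCs and 599, 573 and 594 CPM in EpiLCs. Groups overlapped in both assays, and the limma 95% interval of the log2 change spanned -0.10 to 0.10 in total RNA and -0.08 to 0.14 in RPF. Smarcb1, a core subunit of canonical BAF and PBAF, overlapped as well, with intervals of -0.11 to 0.16 in total RNA and -0.16 to 0.11 in RPF.

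Smarcc1 (BAF155) and Smarcc2 (BAF170) are paralogous scaffold subunits around which the core is built. Smarcc1 footprints were at 487, 399 and 423 CPM in ESCs and 489, 484 and 559 CPM in EpiLCs, where the highest ESC library lay above the lowest EpiLC library. The log2 RPF change was 0.23 ± 0.07 (SE, limma adjusted p = 0.00878), and the mRNA change of 0.15 ± 0.06 stood at the edge of the threshold (limma adjusted p = 0.0494) and passed in 1 of 10 alternative fits, where the adjusted p reached 0.270. Smarcc2 footprints were at 41.9, 46.6 and 45.6 CPM in ESCs and 51.6, 58.9 and 70.6 CPM in EpiLCs, without overlap, a log2 change of 0.44 ± 0.14 (limma adjusted p = 0.00778). Smarcc2 mRNA overlapped between cell types and missed the threshold, at 0.23 ± 0.10 (limma adjusted p = 0.0603). Each scaffold gene thus passed as higher for footprints in the main fit, Smarcc2 from the lower level. The Smarcc1 RPF call was lost with the GC correction (limma adjusted p = 0.0814). Without EpiLC RPF replicate 3 both RPF calls were lost (limma adjusted p = 0.171 for Smarcc1 and 0.148 for Smarcc2).

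Smarcd1 (BAF60A) links the core to transcription factors. Its mRNA was at 175, 178 and 193 CPM in ESCs and 215, 199 and 211 CPM in EpiLCs, and its footprints at 198, 214 and 213 CPM in ESCs and 221, 229 and 267 CPM in EpiLCs, with no overlap in either assay. The mRNA rose by 0.20 ± 0.07 on the log2 scale (limma adjusted p = 0.0113) and the footprints by 0.20 ± 0.08 (limma adjusted p = 0.0245). The mRNA call held in 9 of 10 alternative fits and was lost with DESeq2 (adjusted p = 0.0855), and the RPF call held in 5 of 10 and was lost with RLE scaling, without an expression filter, with DESeq2 and with the GC correction, at adjusted p-values up to 0.158.

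Arid1a and Arid1b are alternative DNA-binding subunits of canonical BAF, and a complex holds one or the other. Arid1a mRNA was at 303, 306 and 315 CPM in ESCs and 402, 389 and 380 CPM in EpiLCs. Its footprints were at 306, 311 and 316 CPM in ESCs and 382, 409 and 374 CPM in EpiLCs. Every EpiLC library lay above every ESC library in both assays, so that mRNA rose 1.27-fold (log2 0.35 ± 0.05, limma adjusted p = 2.47e-06) and footprints 1.24-fold (log2 0.31 ± 0.06, limma adjusted p = 7.40e-05). When changes were corrected for coding GC content, the mRNA change was 0.17 and still passed (limma adjusted p = 0.00428), and the RPF call was lost, with a log2 change of 0.05 (limma adjusted p = 0.441). The coding sequence of Arid1a is 59.6% G and C and that of Arid1b 60.7%, the highest of the 10 genes.

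Arid1b mRNA was at 101, 99.6 and 103 CPM in ESCs and 121, 112 and 107 CPM in EpiLCs, all higher in EpiLCs, but the log2 change of 0.17 ± 0.08 missed the threshold (limma adjusted p = 0.0552). Its footprints were at 74.1, 67.4 and 69.2 CPM in ESCs and 80.5, 72.3 and 59.5 CPM in EpiLCs, and the EpiLC libraries spanned the ESC range. With the GC correction the mRNA change turned to -0.06 (limma adjusted p = 0.467), and the footprint change was -0.33 and passed (limma adjusted p = 0.00573).

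Dpf2 carries paired PHD fingers that bind histone H3 and belongs to canonical BAF. Its mRNA was at 79.5, 78.8 and 76.5 CPM in ESCs and 81.8, 66.2 and 65.2 CPM in EpiLCs, with EpiLC replicate 1 above all ESC libraries and the other EpiLC libraries below them. Its footprints were at 149, 151 and 149 CPM in ESCs and 169, 175 and 193 CPM in EpiLCs, all higher in EpiLCs, a log2 change of 0.27 ± 0.08 (limma adjusted p = 0.00708). The TE change of 0.38 ± 0.12 was the largest increase among the members and missed the threshold (limma adjusted p = 0.107). Without EpiLC total RNA replicate 1 the TE change was 0.52 (limma adjusted p = 0.0280) and the mRNA change was -0.25 (limma adjusted p = 0.0222).

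The RPF calls for Smarcc1, Smarcc2, Smarcd1 and Dpf2 rested in part on EpiLC RPF replicate 3, the highest EpiLC library for each. Without it, 1 of the 5 higher calls was left, that of Arid1a, and 3 were left without ESC RPF replicate 2 or without ESC RPF replicate 3. With the GC correction 2 were left, those of Smarcc2 and Dpf2.

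Brd9, the bromodomain subunit that defines ncBAF, showed no change past the threshold. Its mRNA was at 46.7, 44.1 and 51.6 CPM in ESCs and 44.8, 46.0 and 48.7 CPM in EpiLCs. Its footprints were at 35.9, 32.1 and 35.7 CPM in ESCs and 31.7, 37.6 and 36.2 CPM in EpiLCs. The groups overlapped in both assays, and the 95% interval of the log2 change spanned -0.21 to 0.15 in total RNA and -0.27 to 0.26 in RPF.

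Bicral (GLTSCR1L) is the other ncBAF subunit listed and a paralogue of Bicra (GLTSCR1). Its total RNA level was 82.2, 76.0 and 81.0 CPM in the ESC libraries and 43.7, 43.7 and 46.4 CPM in the EpiLC libraries. Its RPF level was 72.4, 78.3 and 76.1 CPM in ESCs and 21.4, 19.4 and 14.3 CPM in EpiLCs, from 368 to 830 counts per ESC library and from 51 to 103 per EpiLC library. All EpiLC libraries lay below all ESC libraries in both assays, and the gap was wider for footprints than for mRNA.

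Bicral mRNA fell by 0.84 ± 0.08 on the log2 scale (SE, limma adjusted p = 4.14e-09), to 0.559 of its ESC level. Bicral footprints fell by 2.08 ± 0.15 (limma adjusted p = 1.18e-11), to 0.236 of their ESC level, with a 95% interval from 0.191 to 0.293. The TE change tests the footprint change against the mRNA change and was -1.24 ± 0.17 (limma adjusted p = 0.000241), so that footprints per mRNA in EpiLCs were 0.423 of those in ESCs, with an interval from 0.331 to 0.541. By p-value this was the 8th of 11750 TE changes. By size it was the 95th lowest of all 11750 and the 10th of the 74 that passed as lower. Each of the 3 calls held in every alternative fit and with any single library left out, where the TE change ranged from -1.41 to -1.02.

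**Figure D3:**
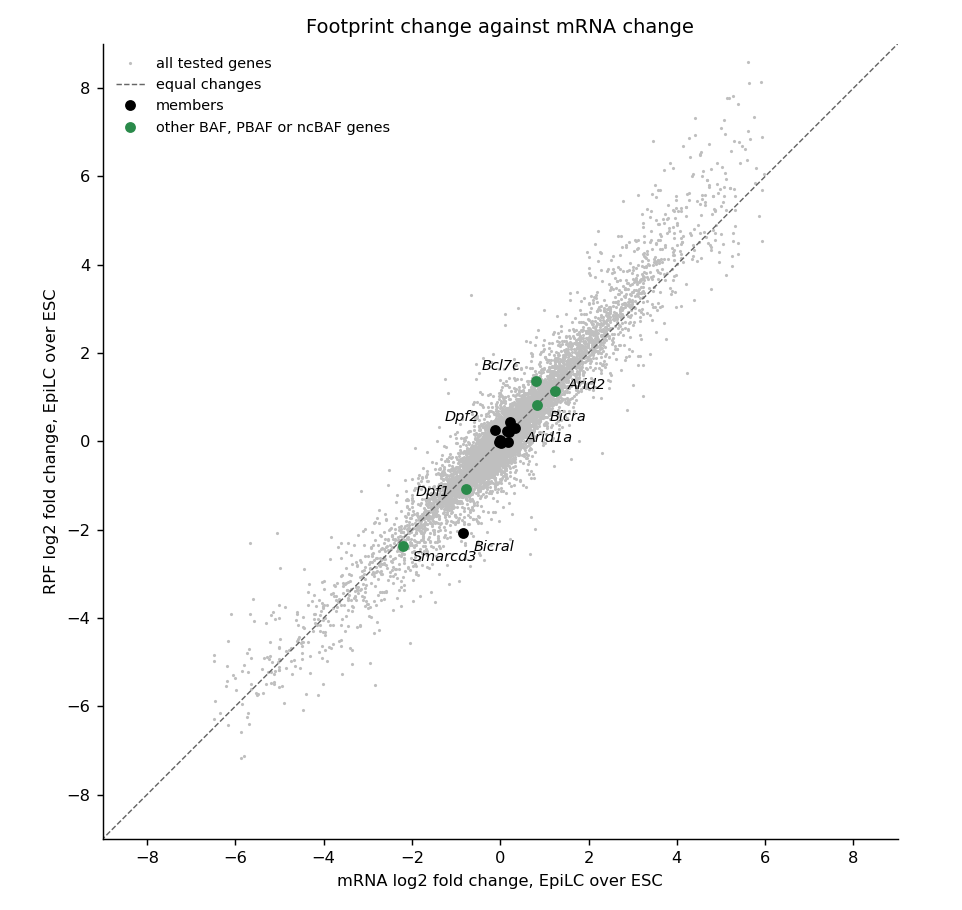
RPF log2 fold change against mRNA log2 fold change, EpiLC over ESC, for the 11750 tested genes (grey), the 10 members (black) and 5 further BAF, PBAF or ncBAF genes (green). The dashed line marks equal changes, Bicral lies below it at -0.84 and -2.08, and the other members lie near the origin.

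TE itself was described per replicate number as the log2 ratio of RPF CPM to total RNA CPM. Bicral stood at -0.18, 0.04 and -0.09 in ESCs, near the middle of the tested genes at percentile 47.1, and at -1.03, -1.16 and -1.69 in EpiLCs, at percentile 9.51. Smarcb1 and Dpf2 had the highest TE of the members. Smarcb1 stood at 1.22 ± 0.06 in ESCs and 1.18 ± 0.13 in EpiLCs (SD, n = 3), at percentiles 95.3 and 93.4, and Dpf2 at 0.94 ± 0.02 and 1.34 ± 0.27, at percentiles 90.5 and 95.3. Arid1b stood lowest in ESCs, at -0.53 ± 0.07 and percentile 28.0. The remaining members lay between percentiles 30.6 and 60.9 in ESCs. The median TE of the 10 genes was -0.06 in ESCs and -0.05 in EpiLCs, beside -0.02 and -0.01 over all tested genes.

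**Figure D4:**
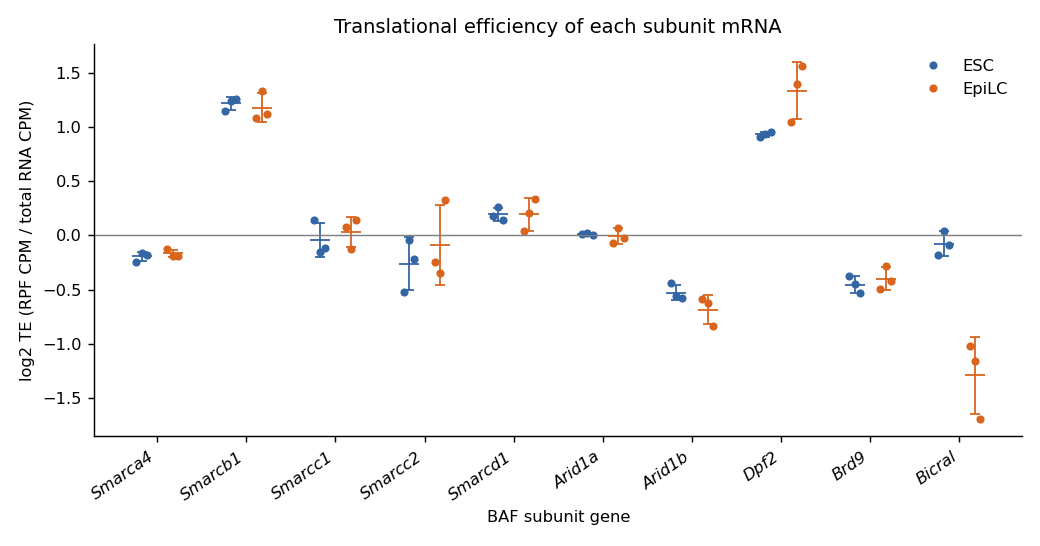
Log2 TE (RPF CPM over total RNA CPM) of each subunit gene in ESCs and EpiLCs. Points are the 3 same-numbered library pairs, and dashes and bars are the mean and SD. Bicral moves from -0.08 ± 0.11 to -1.29 ± 0.35, and Smarcb1 and Dpf2 lie highest in both cell types.

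The Bicral transcript also had the longest annotated leader among the members. Its 5′ UTR of 422 bases held 5 ATG triplets in any frame, and 7.41% of tested genes with an annotated 5′ UTR held as many. Smarcb1 held 1 and the other 8 members none, where 50.2% of tested genes held at least 1. Several of these leaders are short, however. The annotated 5′ UTRs of Arid1a and Arid1b have 0 bases, that of Smarcc2 has 6, that of Dpf2 20 and that of Brd9 56. Bicra, the paralogue of Bicral, held 1 triplet in 132 bases. A longer leader has room for more triplets, and the counts were not scaled by length. The Bicral 5′ UTR was at percentile 86.3 of the tested genes for length, where the median was 175 bases. The Bicral 3′ UTR was likewise long, at percentile 86.4. Footprints on 5′ UTRs were not counted in the deposited table, and whether these triplets bear on the TE change was not tested.

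Bicra, which can take the place of Bicral in ncBAF, moved the other way. Its mRNA was at 11.8, 11.9 and 10.97 CPM in ESCs and 22.8, 24.5 and 15.2 CPM in EpiLCs, and its footprints at 17.3, 17.02 and 19.7 CPM in ESCs and 30.9, 29.7 and 35.3 CPM in EpiLCs. Both assays separated the cell types, with mRNA up by 0.82 ± 0.15 on the log2 scale (limma adjusted p = 4.54e-05), RPF up by 0.82 ± 0.17 (limma adjusted p = 0.000159) and no TE change past the threshold (0.00 ± 0.23 in size, limma adjusted p = 0.998). The RPF call was lost with the GC correction, at 0.37 (limma adjusted p = 0.0672).

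Per kilobase, the Bicra to Bicral ratio in total RNA was 0.0977, 0.106 and 0.0921 in the ESC libraries and 0.354, 0.380 and 0.223 in the EpiLC libraries. In RPF it was 0.162, 0.148 and 0.176 in ESCs and 0.979, 1.03 and 1.67 in EpiLCs. The ratio thus rose 3.15-fold in total RNA and 7.36-fold in RPF without overlap, each with an exact two-sided permutation p of 0.10, the smallest that 3 libraries against 3 allow, and 0.25 after Benjamini-Hochberg adjustment over 10 ratio comparisons. In ESC footprints Bicral exceeded Bicra in every library, and in EpiLC footprints their levels per kilobase were alike in libraries 1 and 2.

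**Figure D5:**
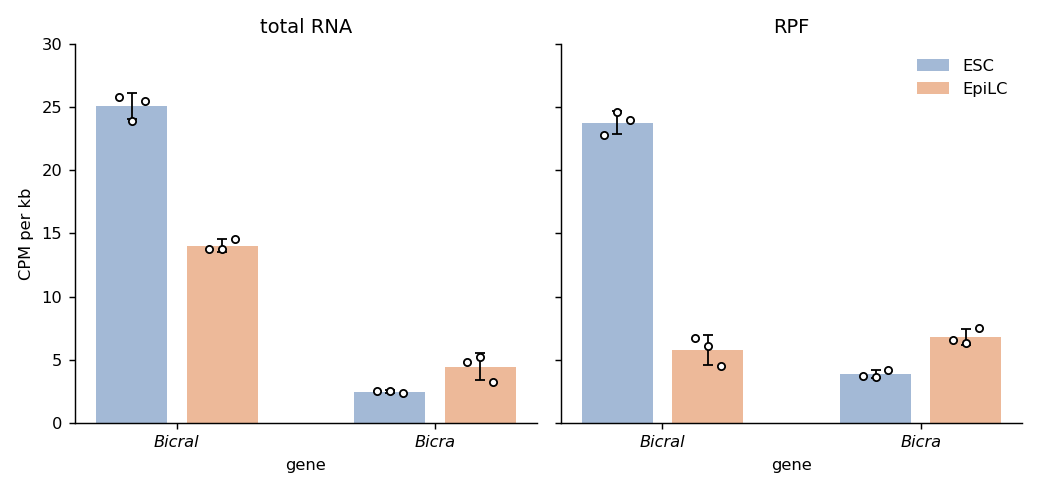
Bicral and Bicra in total RNA and RPF, in CPM per kilobase of counted sequence. Bars are means of 3 libraries, error bars SDs and circles single libraries. Bicral drops from 25.1 to 14.03 in total RNA and from 23.8 to 5.77 in RPF, while Bicra goes from 2.46 to 4.44 and from 3.84 to 6.81.

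The other 4 ratios between alternative subunits moved less. Arid1b to Arid1a went from 0.328 ± 0.00374 to 0.289 ± 0.0108 in total RNA and from 0.225 ± 0.0142 to 0.182 ± 0.0263 in RPF (SD, n = 3), without overlap in either assay (exact permutation p = 0.10, adjusted 0.25). Smarcc2 to Smarcc1 overlapped in both assays, at 0.108 ± 0.0132 and 0.116 ± 0.0146 in total RNA (exact permutation p = 0.60) and 0.0936 ± 0.0142 and 0.107 ± 0.00981 in RPF (exact permutation p = 0.30). Brd9 to Dpf2, a ratio of an ncBAF to a canonical subunit, overlapped as well, with exact permutation p-values of 0.50 in total RNA and 0.20 in RPF. Smarca2 to Smarca4 stood at 0.0120 ± 0.00116 in ESC and 0.0124 ± 0.00133 in EpiLC total RNA (exact permutation p = 0.90), so that Smarca4 was the prevailing ATPase mRNA in both cell types. Smarca2 itself was at 7.16 to 8.68 CPM in ESC and 7.05 to 8.82 CPM in EpiLC total RNA and passed in no contrast.

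A list of 19 other BAF, PBAF and ncBAF genes gave 17 that could be tested, with Actl6b and Dpf3, subunits of neuronal and muscle complexes, below the filter on low counts. For mRNA 7 were higher and 4 lower in EpiLCs, against 34.6% and 30.7% of all tested genes, and for RPF 7 were higher and 4 lower, against 31.1% and 28.7%. For TE 0 passed with limma, edgeR or DESeq2, where an unadjusted limma p below 0.05 was reached by 3 in the higher and 1 in the lower direction. Past a log2 change of 1 were 2 genes for mRNA and 4 for RPF, against 24.3% and 26.0% of all tested genes. The median log2 change of the 17 genes was 0.08 for mRNA and -0.05 for RPF, beside 0.03 and 0.01 over all tested genes.

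Arid2, the subunit that marks PBAF, went from 159, 177 and 167 CPM in ESC total RNA to 387, 410 and 394 CPM in EpiLC total RNA, a log2 change of 1.24 ± 0.06 (limma adjusted p = 1.10e-15), and its footprints changed by 1.15 ± 0.08 (limma adjusted p = 3.36e-12). Smarcd3 (BAF60C), a paralogue of Smarcd1, went from 17.6, 21.8 and 17.8 CPM to 4.74, 3.85 and 3.21 CPM in total RNA. Smarcd3 fell by 2.21 ± 0.21 for mRNA (limma adjusted p = 9.60e-10) and by 2.37 ± 0.34 for RPF (limma adjusted p = 1.35e-06), from 8 to 18 footprint counts per EpiLC library. Bcl7c, an accessory subunit, rose by 1.37 ± 0.18 in RPF (limma adjusted p = 3.36e-07), and Dpf1, a paralogue of Dpf2, fell by 1.08 ± 0.26 in RPF (limma adjusted p = 0.00101). The Dpf1 footprints rest on 14 to 29 counts per EpiLC library. The TE changes of these genes were -0.10 for Arid2, -0.16 for Smarcd3, 0.57 for Bcl7c and -0.31 for Dpf1, with none past the threshold.

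Over the 12 libraries, the tested genes whose log2 CPM followed Bicral most closely included Ism2, Plce1, Pibf1 and Zfp78, with Pearson's r of 0.982, 0.976, 0.974 and 0.971. The points share cell type, assay and library, so these values describe a common order of the 4 groups. In all, 39 tested genes had r above 0.95. The choice by r favours genes whose footprints fell further than their mRNA, so that feature of these 4 is no separate result. Their TE changes ran from -1.19 for Ism2 to -0.54 for Pibf1. That of Plce1 passed the threshold, at -1.06 ± 0.26 (limma adjusted p = 0.0392). Those of Ism2, Pibf1 and Zfp78 did not (limma adjusted p = 0.258, 0.170 and 0.584).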

How the data were processed

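Ribosome protected footprints and total RNA were sequenced by the authors with a ribosome profiling kit from 3 ESC and 3 EpiLC samples each. Per the submitters' processing notes and the study's methods, adapters were trimmed with cutadapt 1.14 with length limits set for each kind of library, reads were mapped uniquely to mm10 with STAR 2.5.3a, and featureCounts 1.5.3 counted the 5′ end of each read, by strand, over coding sequence without its first 45 nt. The deposited values are whole-number raw counts per gene, made by the authors, with 0 columns left without a sample. Reads mapping to several places were dropped, so genes with near-identical copies are undercounted.

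Genes reaching 3 CPM in at least 3 libraries were kept. Counts were scaled with TMM (edgeR 4.0.16), weighted with voom and fitted with limma 3.58.1 (R 4.3.3) over all 12 libraries, with TE as the interaction of cell type and assay, and p-values were adjusted by Benjamini-Hochberg over all tested genes with a threshold of 0.05. The study's methods name limma but the scaling and weighting used by the authors are not given in the sources used here. CPM values are on TMM-scaled totals of the tested genes, and 0.5 was added to counts before ratios were taken. Ratios were compared by exact permutation. Fits were tested on simulated data. Gene names and transcript features came from GENCODE M21 (GRCm38), while the authors counted on an earlier GENCODE release.

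The members and gene lists were chosen with earlier results of these data known. Genes named outside the members were those of the wider list past a log2 change of 1 with an adjusted p below 0.05 in any contrast, Smarca2 and Bicra as the paralogues in the ratios, and the 5 genes of highest Pearson's r to Bicral, of which 1 is not reported here. Alternatives covered scaling, filters, edgeR, DESeq2 1.42.0, limma-trend, replicate blocks, a GC correction and leaving out each library. Libraries of a group were compared in pairs, and their counts differed by 2.54 to 7.85 times the sampling noise (chi-square per degree of freedom), so none was counted as a duplicate. The range of depth per group and the footprint counts of Bicral, Smarcd3 and Dpf1 are given with the results, and intervals are limma 95% intervals.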

Additional observations from a re-analysis of the deposited data

Results flagged for a closer look

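Bicral was singled out because its EpiLC over ESC change differed between footprints and total RNA by the interaction test: -2.08 ± 0.15 for RPF against -0.84 ± 0.08 for mRNA on the log2 scale, a difference of -1.24 ± 0.17 (limma adjusted p = 0.000241), with all 3 EpiLC footprint libraries below all 3 ESC footprint libraries. The EpiLC footprint values rest on 51 to 103 counts per library, and the lowest of them was replicate 3 at 14.3 CPM. Without that library the difference was -1.02 (limma adjusted p = 0.00699). The cause was not tested.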

How the results depend on the processing

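The calls for Bicral (lower mRNA, RPF and TE) kept direction and threshold in every alternative and with each library left out. Of 1069 recomputed gene values 943 kept direction and side of the threshold, as did 215 of 228 summary values. With DESeq2, 1 member was higher for mRNA (3 before), and with the added limit of 1 on the log2 change 0 were higher and 0 lower for mRNA and 0 higher for RPF. The GC correction, alone or with the replicate block, left 2 higher and 2 lower for RPF. With single libraries left out, the number higher ranged from 2 to 4 for mRNA, from 1 to 5 for RPF and from 0 to 1 for TE, and the number lower from 1 to 2 for mRNA. Causes were not tested. Without any expression filter the median RPF change of all genes was 0.13 against 0.01.

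Changes of direction were confined to values that had not passed the threshold. The Smarca4 mRNA change was -0.040 with RLE factors, -0.040 with DESeq2, -0.032 without a filter, -0.022 with at least 10 counts in every library and -0.025 with the GC correction, with or without the block. With that correction Smarca4 stood at -0.072 for RPF and -0.047 for TE (-0.046 with the block), Smarcd1 TE at -0.071 (-0.067), Arid1b mRNA at -0.060 (-0.065) and, without the block, Brd9 TE at -0.0053. Smarcb1 mRNA was -0.017 with RLE factors, -0.023 with DESeq2 and -0.0067 without a filter, and Smarcb1 RPF 0.00067 with total counts. Arid1b RPF was 0.014 with total counts, 0.0028 with edgeR and 0.00033 with limma-trend. Brd9 RPF was 0.026, 0.0089 and 0.024 in the same order, and Smarcd1 TE -1.4e-05 with limma-trend. Bicra TE was 0.028 with total counts, 0.011 with RLE factors, 0.0045 without a filter, 0.019 with at least 10 counts, 0.0078 with limma-trend and 0.0038 with a block per culture.

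With single libraries left out, the range was -0.036 to 0.022 for Smarca4 mRNA, -0.047 to 0.035 for Smarca4 RPF, -0.011 to 0.071 for Smarca4 TE, -0.027 to 0.10 for Smarcb1 mRNA, -0.13 to 0.0034 for Smarcb1 TE, -0.091 to 0.065 for Smarcd1 TE, -0.17 to 0.10 for Arid1b RPF, -0.084 to 0.025 for Brd9 mRNA, -0.079 to 0.038 for Brd9 RPF, -0.031 to 0.10 for Brd9 TE, -0.31 to 0.051 for Smarcd3 TE and -0.19 to 0.12 for Bicra TE.

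Deviations of same-numbered libraries from their group means had correlations from -0.18 to 0.16, which cannot settle whether these libraries are pairs. The main fit used no pairs. TE per replicate number joined same-numbered libraries for description only, and its SD depends on that matching. With the replicate block 2 members were higher for mRNA, 5 for RPF and 0 for TE, and 1 was lower in each. The Bicra to Bicral log2 ratio change of 2.88 in RPF cannot move under such a block, since every group holds the same replicate numbers. The block is therefore no check of that ratio. EpiLC RPF libraries, at 2681439 to 5413144 counts, limit the precision of every footprint value.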
